A study of Homo sapiens with 2 samples.

Results

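RGS proteins (regulators of G protein signalling) are described here through 10 genes of the family, RGS2, RGS3, RGS4, RGS5, RGS10, RGS12, RGS14, RGS16, RGS19 and RGS20, of 18239 genes in all that had a probe set annotated to 1 symbol alone. The 10 genes had 32 probe sets of 45253. They were selected on their log2 differences between these same arrays, RGS2 for the size of its own, so all values below are descriptions. The study treated GFP-SAS cells, an established human tongue squamous cell carcinoma line that carries green fluorescent protein. The treated culture received an antisense oligonucleotide of LNA and DNA directed at miR-361-3p, and the control culture a non-target LNA/DNA oligonucleotide, each at 25 nM for 24 h. Each culture gave 1 Affymetrix 3' expression array, from 10 ng of total RNA. With 1 array per group there is no replicate error and no test, and every difference compares these 2 arrays, not the conditions.

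A heterotrimeric G protein is switched on when a receptor loads its alpha subunit with GTP, and off when the subunit hydrolyses that GTP. The RGS domain binds the active alpha subunit and speeds up this hydrolysis, so RGS proteins shorten receptor signals. The R4 subfamily (here RGS2, RGS3, RGS4, RGS5 and RGS16) holds mostly small proteins with little outside the RGS domain. The R12 subfamily (RGS10, RGS12 and RGS14) and the RZ subfamily (RGS19 and RGS20) act mainly on alpha subunits of the Gi class. RGS2 stands out within R4 for its preference for Gq, the class that activates phospholipase C beta, and its gene is known to be induced quickly by receptor and cAMP signals.

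The oligonucleotide was directed against the 3p arm of the miR-361 hairpin. Both mature arms are shown because only the 3p arm was targeted and they differ in their seeds, the bases in capitals (positions 2 to 8 from the 5′ end), which guide target choice. They come from RefSeq, build GRCh38.p14, at chrX:85903641-85903663 and chrX:85903681-85903702 on the minus strand.
hsa-miR-361-3p: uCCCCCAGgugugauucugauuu
hsa-miR-361-5p: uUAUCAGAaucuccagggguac
Of 2370 mature miRNA names in that table, 1 carried the 3p seed, miR-361-3p itself. Matches to this seed in the RGS transcripts were not analysed here.

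RGS2 was represented by 1 probe set, at a level of 6.35 (anti-miR) and 4.14 (control). All levels are RMA values on the log2 scale, a measure of brightness per probe set. The log2 difference, anti-miR minus control, was 2.21, or 4.63-fold, and RGS2 ranked 2 of 11272 genes by increase. That rank describes how the gene was chosen. Its level stood at the 41.6th percentile of the control array and at the 73.1st percentile of the anti-miR array. The control level lay 0.49 below that array's median of 4.63. Both levels also lay inside the range of 23 control probe sets for nonspecific signal, the highest of which read 7.16 (anti-miR) and 6.87 (control), called the nonspecific range below. The medians of these 23 were 2.62 (anti-miR) and 2.52 (control), below the RGS2 levels. Their highest values exceeded the 75th percentiles of the arrays, 6.53 (anti-miR) and 6.62 (control), so most probe sets lay inside this range. By the highest of these control probe sets, RGS2 is thus not shown to be above background, least of all in the control. The fold is not an exact size. In RNA from whole cultures, more cells with RGS2 and more RGS2 RNA per cell cannot be told apart. When levels below an array's median were set to that median, a setting chosen after seeing the data, the difference was 1.72, or 3.29-fold.

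A gene entered the comparison if a probe set of it reached the median of at least 1 array, and its value is the mean over such retained probe sets. This kept 13 of the 32 RGS probe sets and 8 of the 10 genes. RGS2 was kept through its level on the anti-miR array alone, so its presence among the retained genes depends on its difference. RGS4 and RGS5 had no retained probe set. Counted at 1.5-fold, a log2 difference of 0.58, RGS2 was the 1 gene of 8 that was higher and RGS20 the 1 gene that was lower. Over all 11272 retained genes 8.23% were that much higher and 14.2% that much lower. With so few members, shares of 12.5% each way were near this background. At 2-fold, RGS2 was higher and no RGS gene lower, against 1.23% and 6.98% of all retained genes. The split of all called genes moved from 36.7% higher to 20.4% higher once the median difference of 0.13 was subtracted from every gene, and to 22.4% with a lowess trend against level subtracted. The other 6 RGS genes lay between 0.06 and 0.50. The median of the 8 was 0.26, against 0.13 for all retained genes. Of the 8, 7 were above 0 as deposited. After either correction 6 were, with RGS14 at -0.07.

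**Figure D1:**
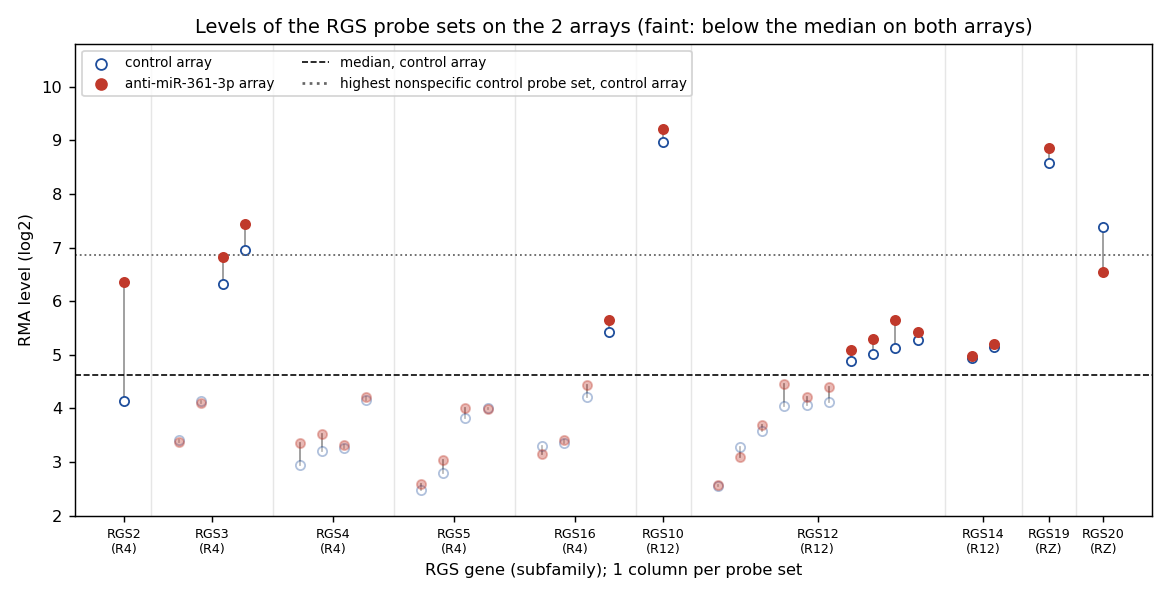
RMA levels (log2, vertical axis) of the 32 probe sets of the 10 RGS genes, 1 column per probe set, on the control array (open blue) and the anti-miR-361-3p array (red); faint points lay below the median of both arrays. RGS2 goes from below the median line to 6.35, RGS20 is lower at 6.55 against 7.38, and the 8 probe sets of RGS4 and RGS5 all lie below the median.

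**Figure D2:**
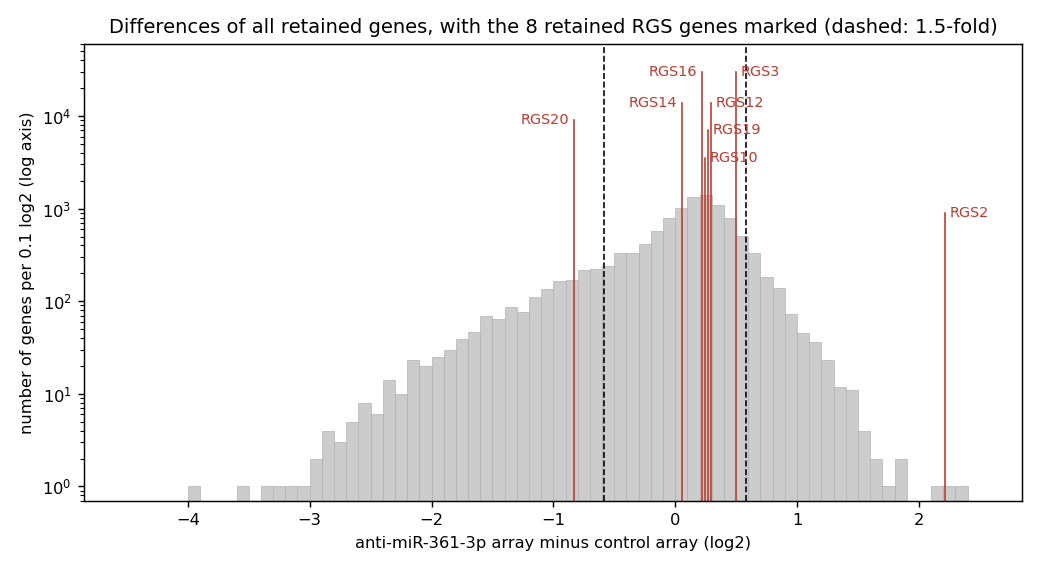
Histogram of the log2 difference, anti-miR minus control, of 11272 retained genes (number of genes on a log axis), with a red line at each of the 8 retained RGS genes and dashed lines at 1.5-fold. RGS2 lies in the sparse right tail at 2.21 and RGS20 at -0.83, while the other 6 genes lie between the dashed lines.

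Among the other R4 genes, RGS3 had the next largest increase and stayed short of 1.5-fold. RGS3 is made in several forms, the longer of which carry domains beside the RGS domain. Its retained probe sets read 6.83 against 6.33 and 7.44 against 6.95, anti-miR before control. They differed by 0.50 and 0.49, a mean of 0.50 ± 0.01 (SD over 2 probe sets of the same arrays, a technical spread that holds no variation between cultures). The brighter of these lay above the nonspecific range on both arrays. The dimmer RGS3 probe sets, at 3.38 against 3.40 and 4.10 against 4.14, differed by -0.02 and -0.03. The RGS3 probe sets thus split into a brighter pair that was higher on the anti-miR array and a dim pair that was level, and with all 4 in the mean the difference was 0.23. The distance from RGS2 to RGS3 was 1.72 on the log2 scale.

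RGS16, an R4 protein with a short half-life that acts on Gi and Gq, had 4 probe sets, of which 1 was retained. It read 5.64 on the anti-miR and 5.42 on the control array, a difference of 0.22. Its 3 dim probe sets differed by -0.14, 0.06 and 0.23. The RGS16 signal was thus nearly level on both arrays. RGS4, best known from neurons and heart, had 4 dim probe sets between 2.95 and 4.22, which differed by 0.40, 0.31, 0.05 and 0.07. RGS5, a gene typical of pericytes and smooth muscle, had 4 dim probe sets between 2.47 and 4.02, which differed by 0.11, 0.25, 0.19 and -0.01. None of these 8 probe sets reached the median on either array, so neither gene is shown to be above background in GFP-SAS cells. Of 7 smooth muscle and pericyte markers, none had a probe set above the nonspecific range on either array.

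The R12 genes were all within 1.5-fold. RGS10, a small protein of this subfamily, was read by 1 probe set at 9.22 on the anti-miR and 8.97 on the control array. That difference, 0.24, was read well above the nonspecific range on both arrays. RGS12, a large scaffold with PDZ and Ras-binding domains, had 10 probe sets, of which 4 were retained. Their anti-miR against control levels were 5.10 against 4.89, 5.29 against 5.02, 5.66 against 5.12 and 5.43 against 5.27. The anti-miR level was the higher one in all 4, by a mean of 0.29 ± 0.17 (SD over 4 probe sets) and a range of 0.16 to 0.53. The 6 dim RGS12 probe sets ranged from -0.19 to 0.42. RGS14, which also binds Ras family proteins and inactive Gi alpha subunits, read 4.99 against 4.94 and 5.21 against 5.14. Its difference was 0.06 ± 0.02 (SD over 2 probe sets), the smallest among the 8 genes.

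The RZ genes differed in direction, each with a single probe set. RGS19, also called GAIP, acts on Gi alpha subunits and is bound to membranes. It was read by 1 probe set at 8.86 on the anti-miR and 8.59 on the control array, a difference of 0.27. RGS20, which acts on the alpha subunit Gz and is enriched in brain, was read by 1 probe set at 6.55 on the anti-miR and 7.38 on the control array. Its difference was -0.83, or 1.78-fold lower, and it ranked 1069 of 11272 genes by decrease. The control level of RGS20 lay above the nonspecific range and the anti-miR level inside it, so the lower end is not shown to be above background.

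Across all 32 RGS probe sets, 26 had a difference above 0 and 6 below, a share of 81.3% against 61.9% of all probe sets with 1 symbol. Past 1.5-fold were 1 higher and 1 lower, against 5.04% and 9.87% of all such probe sets. Most of these differences were small, and probe sets of 1 gene are not independent. The 12 probe sets of the poly-A controls, bacterial transcripts spiked into the samples ahead of labelling, gave a difference of 0.32 ± 0.19 (SD). Differences of 0.06 to 0.50 in 6 RGS genes were of that order, while RGS2 exceeded it by 1.89. The part of the labelling in these small differences was not tested.

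The 8 genes differed widely in length, a property with which the differences of all genes varied. When the retained genes were split into 5 length classes of nearly equal size, the median difference was 0.25 in the shortest and -0.45 in the longest. In the longest class, genes of 83.4 kb and more, 43.6% were at least 1.5-fold lower and 1.15% at least 1.5-fold higher. RGS2, at 3.24 kb, was the shortest of the 8 genes and belonged to the shortest class, in which 12.6% were at least 1.5-fold higher. RGS16 (5.77 kb) and RGS19 (6.78 kb), of that class too, lay at its 44.2nd and 53.1st percentiles. RGS20 (108 kb), at the 31.5th percentile of the longest class, lay between that class's quartiles of -0.98 and -0.01. RGS3 (153 kb) and RGS12 (154 kb) differed from it in direction and lay at the 97.9th and 92.5th percentiles of the same class. RGS10 (42.9 kb) and RGS14 (14.7 kb) lay at the 76.7th and 21.2nd percentiles of their classes.

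**Figure D3:**
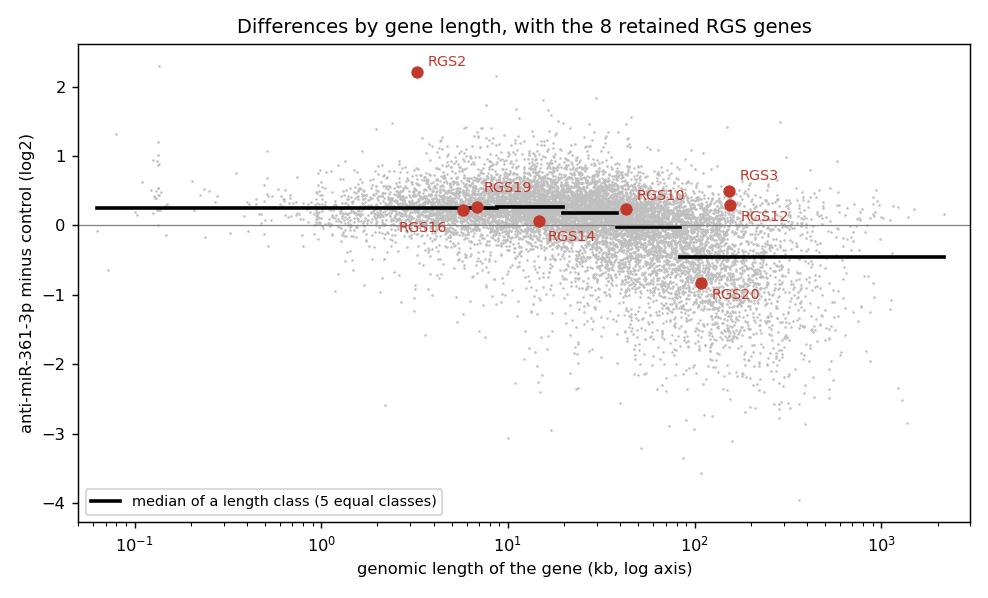
Log2 difference, anti-miR minus control, of retained genes (grey) against genomic length in kb on a log axis, with the median of each of 5 length classes (black bars) and the 8 retained RGS genes (red). The class medians go from 0.25 to -0.45 with length; RGS3 and RGS12 lie above the longest class's median and RGS20 below it, and RGS2 lies far above the shortest class's median.

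The other 11 RGS-named genes gave little signal. Their 28 probe sets ranged from -0.26 to 0.36 in difference, and none was past 1.5-fold. Only RGS6 and RGS9, R7 proteins that pair with the beta subunit GNB5, had a retained probe set, with differences of 0.11 and 0.13. The highest level of any of the 28 was 5.40, inside the nonspecific range. Of these genes, 4 (RGS18, RGS21, RGS1 and RGS13, in this order) precede RGS2 on chromosome 1 with no other protein-coding gene between them in the RefSeq table. Their probe sets were all dim, none above 3.16, and differed by -0.19 to 0.17. The protein-coding genes on the other side, named for their position after values were known, were brighter and mostly lower on the anti-miR array. UCHL5, a deubiquitinase, differed by -1.72 ± 0.52 (SD over 6 probe sets), and RO60, an RNA-binding protein, by -1.47 ± 0.49 (SD over 4 probe sets). CDC73, a subunit of the PAF complex of transcription elongation, differed by -1.44 ± 0.10 (SD over 3 probe sets), and GLRX2, a glutaredoxin, by 0.54 (1 probe set). Of these neighbours 4 were thus dim, 3 lower and 1 short of 1.5-fold, where 14.2% of all retained genes were lower. CDC73 (133 kb) belongs to the longest class, of which 43.6% were lower. UCHL5 (47.8 kb) and RO60 (32.2 kb) belong to shorter classes, of which 16.5% and 6.22% were lower. With so few genes these counts do not set the surroundings of RGS2 apart.

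The stretch just upstream of the RGS2 start is shown because RGS2 had the largest difference in the family, beside that of RGS16, an R4 gene on the same chromosome that was nearly level. Both are 250 bases before the start in RefSeq, build GRCh38.p14, RGS2 from chr1:192808789-192809038 on the plus strand and RGS16 from chr1:182604390-182604639 on the minus strand. Capitals mark the CRE half-site TGACG, a part of the motif bound by CREB, and the CCAAT box, each on either strand.
RGS2: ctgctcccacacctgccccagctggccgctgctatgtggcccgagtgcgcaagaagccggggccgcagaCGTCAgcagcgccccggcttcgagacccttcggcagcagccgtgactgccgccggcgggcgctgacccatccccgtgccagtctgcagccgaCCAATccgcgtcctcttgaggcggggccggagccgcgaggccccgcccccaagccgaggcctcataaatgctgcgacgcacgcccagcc
RGS16: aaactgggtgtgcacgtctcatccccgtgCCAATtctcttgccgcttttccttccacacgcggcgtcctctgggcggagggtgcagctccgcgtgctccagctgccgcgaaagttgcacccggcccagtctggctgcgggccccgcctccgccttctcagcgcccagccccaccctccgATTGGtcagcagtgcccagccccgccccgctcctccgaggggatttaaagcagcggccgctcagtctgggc
The RGS2 stretch held 1 CRE half-site, read as CGTCA from -181 to -177, and 1 CCAAT box from -89 to -85, counted back from the start. The RGS16 stretch held no CRE half-site and 2 CCAAT boxes, of which 1 lay on the reverse strand from -71 to -67. Their GC contents were 72.8% and 68.4%, against a median of 58% over 35116 such stretches. Of all these stretches 21.2% held the half-site TGACG and 32.0% the box CCAAT on either strand. The 23 stretches of 9 RGS genes that matched the table held them in 5 and 6 cases. The full site TGACGTCA was in none of the 23 and in 1.65% of all. A match describes letters only.

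The 5 retained genes nearest to RGS2 in level on both arrays were taken by Euclidean distance over these 2 arrays, a likeness in 2 numbers. OSR2, a zinc finger transcription factor, was nearest at a distance of 0.34, with 6.08 on the anti-miR and 4.35 on the control array. EXO5, a DNA exonuclease, followed at 0.57, with 5.93 against 4.52. ZNF468 and ZNF397, zinc finger genes, lay at 0.62 and 0.63, and CALML4, a calmodulin-like gene, at 0.62. Their log2 differences ran from 1.33 (ZNF397) to 1.80 (CALML4). As RGS2 was chosen for the size of its own difference, no comparison with them is drawn.

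The genes on which RGS proteins act differed among themselves. Of the Gq class, the preferred substrates of RGS2, GNAQ was 2.37-fold lower and its relative GNA11 was higher, short of 1.5-fold. GNAQ had 5 retained probe sets, all lower, at -0.88, -0.76, -1.67, -1.28 and -1.63, a mean of -1.25 ± 0.42 (SD over 5 probe sets). Its 2 dim probe sets differed by 0.10 and -0.07, and with all 7 in the mean GNAQ was at -0.89. The brightest went from 7.27 on the control array, above the nonspecific range, to 5.64 on the anti-miR array, inside it. GNA11 read 7.41 against 6.89 and 8.43 against 7.95, a mean difference of 0.50 ± 0.03 (SD over 2 probe sets). GNA15, the Gq alpha subunit of blood cells and some epithelia, differed by -0.05 ± 0.03 (SD over 2 probe sets). GNA14 had only dim probe sets, reading 2.86 against 2.77 and 2.92 against 2.97. Of 3 retained Gq genes, 1 was thus lower and none higher past 1.5-fold, against 14.2% and 8.23% of all retained genes. With so few genes these counts do not set the class apart. GNAQ spans 316 kb, in the longest class, of which 43.6% were lower, and GNA11 spans 29.6 kb.

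Of 4 retained alpha subunits of the Gi class, 1 was lower and none was higher, near the background of 14.2% and 8.23% of all retained genes. GNAI3 read 3.92 against 6.25, 5.48 against 6.36, 7.10 against 8.45 and 8.64 against 10.00, anti-miR before control. Every one was lower, by a mean of -1.48 ± 0.61 (SD over 4 probe sets), and the last lay above the nonspecific range on both arrays. The other 3, named like all genes below that were short of 1.5-fold after their values were seen, were GNAI1, GNAI2 and GNAO1, within 1.5-fold at -0.41, 0.16 and 0.22. None of 3 retained genes of the Gs and G12 classes passed 1.5-fold, with GNAS at -0.54, GNA12 at -0.51 and GNA13 at 0.38. The GNA12 mean joins 2 probe sets that disagreed, at -1.31 and 0.29. The brighter read 7.24 against 8.55, above the nonspecific range on both arrays. With the brightest probe set of each gene, 2 of the 3 were lower, against 1638 of all 11272 genes. After either correction, the median or the lowess trend, 2 of the 3 genes were past 1.5-fold as lower. Over all retained genes 17.3% (median) and 16.8% (lowess trend) were then lower.

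Of 8 retained beta and gamma subunits, GNG12 was the 1 past 1.5-fold, as lower, against 14.2% of all retained genes. GNB1, a beta subunit, was at -0.49, and after either correction 2 of the 8 genes were lower. Over all retained genes 17.3% (median) and 16.8% (lowess trend) were lower after these corrections. The GNG12 probe sets read 7.07 against 8.08, 7.53 against 8.50 and 7.75 against 8.64, a mean difference of -0.95 ± 0.06 (SD over 3 probe sets). GNG12 spans 132 kb, in the longest class, of which 43.6% were lower. None of 6 retained effector genes, the phospholipases C beta and adenylyl cyclases, passed the threshold. After either correction 1 was past it as lower, beside those 17.3% and 16.8% of all retained genes. Their median was 0.31, and they ranged from -0.53 (ADCY9) to 0.51 (PLCB3). The ADCY9 mean joins 2 probe sets that disagreed, at -1.39 and 0.32. No gene among 5 retained RGS-binding proteins or 2 retained arrestin and receptor kinase genes was past 1.5-fold either.

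Of 18 retained G protein-coupled receptors, 2 were higher and 3 lower, and their median was -0.07. These counts were near the background, 8.23% higher and 14.2% lower over all retained genes. LPAR1, a receptor for lysophosphatidic acid that couples to Gi, Gq and G12, read 4.19 against 5.25, 5.91 against 7.56, 6.56 against 7.92 and 7.34 against 8.64. It was 2.54-fold lower, a mean difference of -1.35 ± 0.25 (SD over 4 probe sets). F2R, the thrombin receptor, read 4.91 against 5.68, a difference of -0.77. ADORA2B, an adenosine receptor coupled to Gs, read 8.90 against 9.63, a difference of -0.74. LPAR1 (166 kb) and ADORA2B (125 kb) belong to the longest class, of which 43.6% were lower, and F2R (19.6 kb) does not. PTGER4, a prostaglandin receptor coupled to Gs, read 7.70 against 6.93, a difference of 0.76. P2RY11, a nucleotide receptor, read 5.49 against 4.83, a difference of 0.66, and was named after its value was seen. After centring P2RY11 was at 0.53, short of the threshold. Of the 18 receptors 1 was then higher and 4 lower, against 4.43% and 17.3% of all retained genes. Both levels of F2R and of P2RY11 lay inside the nonspecific range. A second, dim probe set of PTGER4 differed by 0.10, and with it in the mean PTGER4 was at 0.43.

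Of 10 retained proteins that carry an RGS homology domain outside the RGS-named genes, 4 were lower and none was higher. Over all retained genes 14.2% were lower, and over the longest class, to which all 4 belong, 43.6%. Of the rest of the list only ARHGEF11 (112 kb), at 0.19, belongs to that class. The share of 43.6% is thus no background for the list of 10, which also holds shorter genes. SNX13, a sorting nexin of endosomes, read 3.88 against 4.96, 3.23 against 4.96, 3.72 against 5.80 and 5.29 against 6.29, a mean difference of -1.48 ± 0.52 (SD over 4 probe sets). All levels of SNX13, SNX25 and ARHGEF12 lay inside the nonspecific range. With levels below the median set to it, SNX13 was at -0.70 and SNX25 at -0.48, and 3 genes were lower. SNX14 differed by -0.69 (1 probe set) and SNX25 by -0.61 ± 0.21 (SD over 2 probe sets). ARHGEF12 had probe sets at -1.17 and -0.04. All 4 genes span at least 88.4 kb. With no filter on dim probe sets 2 of the 4, SNX14 (-0.36) and ARHGEF12 (-0.31), were short of 1.5-fold.

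Of 6 retained genes induced through cAMP and CREB, SIK1, a kinase that feeds back on this pathway, was the 1 past 1.5-fold, near the background of 8.23%. It read 7.88 on the anti-miR and 7.21 on the control array, a difference of 0.67, and 0.54 after centring on the median, short of the threshold. DUSP1, a phosphatase of MAP kinases, differed by 0.49 ± 0.22 (SD over 2 probe sets), and NR4A1, FOS and CREM by 0.22, -0.15 and -0.02. The median of the 6 genes was 0.22.

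**Figure D4:**
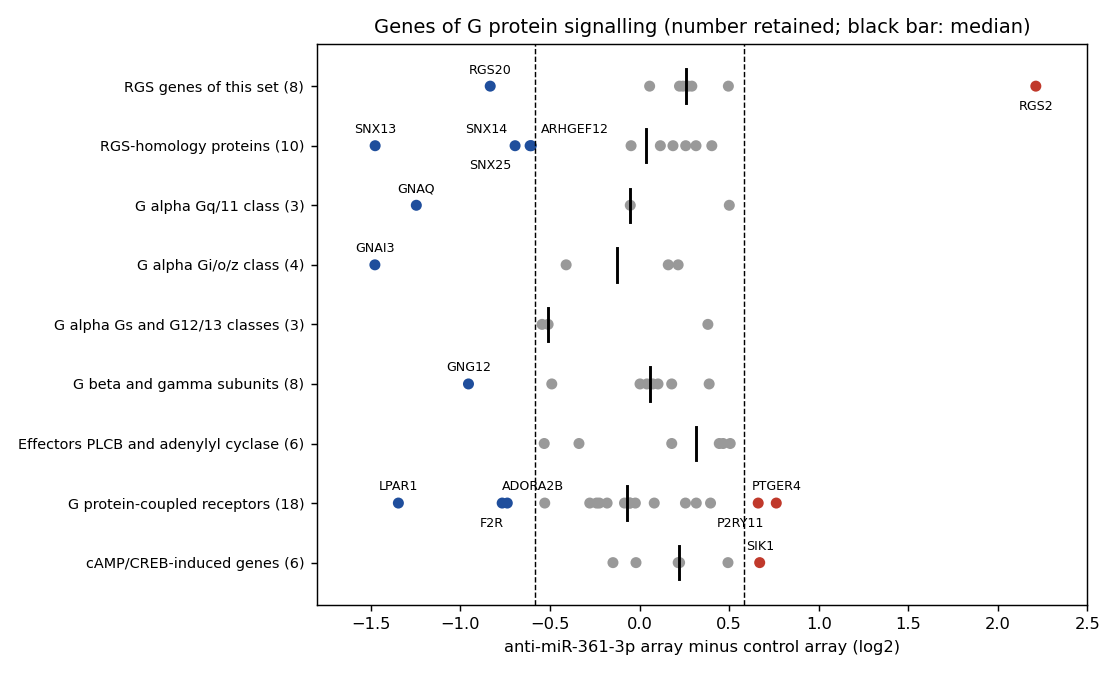
Log2 difference, anti-miR minus control, of the retained genes of each list (1 point per gene, number of genes in brackets), with the list's median (black bar) and dashed lines at 1.5-fold; red is higher and blue lower past that fold. RGS2 lies alone at 2.21, while SNX13, GNAI3, LPAR1 and GNAQ lie between -1.48 and -1.25.

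Squamous epithelial markers were read beside the label of the cells. Of 16 listed, 10 had a probe set annotated to 1 symbol alone. Of these 10, 9 were retained and 7 lay above the nonspecific range on both arrays. The 7 include CDH1 and EPCAM, and whether they tell squamous from other epithelial cells was not tested. DSG3 was retained and lay inside the range on both arrays. Of the 9, PKP1, a desmosomal plakophilin, was the 1 past 1.5-fold, where 8.23% of all retained genes were higher. It read 5.06 against 4.22, a difference of 0.84 inside the nonspecific range. Its control level lay below that array's median, so it was retained through the anti-miR array alone. With all its probe sets in the mean PKP1 was at 0.44, short of 1.5-fold. None of 7 fibroblast, 6 leukocyte or 6 endothelial markers had a probe set above the nonspecific range on either array. GAPDH, a glycolytic enzyme, differed by -0.0047, and ACTB, cytoplasmic actin, by -0.13 ± 0.01 (SD over 3 probe sets). Medians of the arrays were 4.64 (anti-miR) and 4.63 (control).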

How the data were processed

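Each deposited value is a log2 level of 1 probe set. The authors obtained it by RMA, as the submitters' processing notes name it. That method subtracts background, equalises the arrays' distributions and combines the probes of a set. It can compress differences of dim probe sets. For its version and a genome build, the sources used here give nothing. Of 49386 probe sets, 93 were array controls. Of 45253 with 1 symbol, 45172 were matched by Entrez ID to RefSeq (GRCh38.p14), which gave symbols and lengths. Retained were 24127 probe sets and 11272 genes. Differences are anti-miR minus control, counted at 1.5-fold, with no test. Precision is limited by having 1 array per group. The nonspecific range is that of 23 control probe sets.

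The members and lists were chosen with earlier results of these data known. Named were all members, up to 4 genes per pathway list past 1.5-fold whose retained probe sets agreed in direction, the Gq genes, the 5 genes nearest to RGS2, GAPDH and ACTB. Pathway genes short of the threshold, P2RY11, PKP1 and RGS2's neighbours were named after their values were seen. Alternatives were no filter, the 75th percentile, the brightest or median probe set, centring, a lowess trend (fraction 0.3), plain _at probe sets, and 2-fold. The counting was tested on simulated data with a smaller spread between probe sets than here, which checks the code and not the calls. Python 3.11.15, numpy 2.4.6, pandas 2.3.3 and statsmodels 0.14.6 were used.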

Additional observations from a re-analysis of the deposited data

Results flagged for a closer look

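The poly-A control probe sets, which lie outside the gene comparison, were higher on the anti-miR array than on the control array by a mean of 0.32 on the log2 scale (12 probe sets).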

How the results depend on the processing

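Leaving out an array was not possible with single arrays, and signal over background limits what dim probe sets, RGS2 in the control among them, can show. No paired analysis was possible because there was 1 array a group. RGS2 had no value with the filter at the 75th percentile or with plain _at probe sets alone, since its probe set was left out, and 0 RGS genes were then at least 1.5-fold higher. Plain _at probe sets left 2 RGS genes and 0 lower, and a 2-fold threshold gave 0 lower. Setting levels below the median to it, chosen after seeing the data, gave 1.72 for RGS2. Against 928 of 11272 genes higher, centring gave 499, a lowess trend 547 and 2-fold 139. Against 1602 lower, 2-fold gave 787. Plain _at probe sets left 3438 genes, of which 318 were higher and 507 lower. As shares these were 9.25% and 14.7%, close to the 8.23% and 14.2% of all retained genes. RGS20 ranged from -0.96 to -0.83 over 7 of 8 alternatives and had no value with plain _at probe sets. RGS12 ranged from 0.16 to 0.53 and RGS3 from 0.23 to 0.50. No value past 1.5-fold reversed.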
